A study of Mus musculus with 18 samples.

Results

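The samples described here are macrophages that were taken off growth medium: wild-type (WT) bone marrow-derived macrophages harvested 8 h after medium conditioned by L929 cells was exchanged for regular medium with vehicle, set against cells harvested at the exchange (0 h). They were chosen by their titles and make up 6 of the 18 arrays of the series, 3 labelled 8 h vehicle and 3 labelled 0 h. The marrow came from male FVB/NJ mice aged 10 to 14 weeks and was grown for 7 to 10 days with 20% L929-conditioned medium. In both groups that medium was removed, the cells were washed, and medium with 10% serum but no conditioned medium was added. The vehicle group then received phosphate-buffered saline and no LPS. The other 12 arrays are WT cells given 100 ng/mL LPS for 8 h, and cells of Klf3 knockout (KO) mice at 0 h, after vehicle and after LPS, with 3 arrays in each of the 6 groups. No group stayed in conditioned medium for 8 h, so the loss of conditioned medium, the wash, the fresh serum, the saline and the elapsed time cannot be told apart. The labels do not say whether replicates were separate animals or cultures, so a p-value here reflects the spread between arrays, which may be technical.

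L929 is a mouse fibroblast line whose culture medium is used as a source of macrophage colony-stimulating factor (M-CSF, gene Csf1), together with whatever else these cells secrete. M-CSF binds the receptor tyrosine kinase CSF1R and, through ERK and PI3K-AKT signalling, sustains the survival and division of macrophages grown from marrow. D-type cyclins carry such a growth factor signal into the cell cycle, where E2F factors then switch on the genes of DNA replication. Macrophages deprived of M-CSF are known to stop dividing and, in time, to die.

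Each value is an intensity on an Affymetrix HT MG-430PM array after log2 and quantile normalization, and 1 probe set stands for each of 17097 genes. A gene was called higher or lower at a Benjamini-Hochberg adjusted p under 0.05 in a limma fit over all 18 arrays, and log2 changes are vehicle minus 0 h, given ± SE of that fit with n = 3 arrays in each group. The level of nonspecific signal, taken from 23 control probe sets, was 13.1 to 16.9 intensity units in the vehicle arrays and 16.8 to 17.8 in the 0 h arrays. Genes above that level made up 55.5% to 58.7% in the vehicle arrays and 55.2% to 56.1% in the 0 h arrays. The upper quartile of the deposited intensities was 110 to 125 after vehicle and 124 to 167 at 0 h. The array's measure of RNA quality moved with the groups: the 5′ minus 3′ signal of the Gapdh control was -0.172 ± 0.0849 (log2, SD, n = 3) after vehicle and 0.139 ± 0.0224 at 0 h (exact permutation p = 0.1, two-sided, the smallest that 3 against 3 allows). Its part in the results below was not tested. The sample descriptions begin with what reads as a plate position, with vehicle in rows C and D and 0 h in rows A and B, so plate row and condition cannot be told apart. Summed over 29 measured macrophage markers, the signal was 45840 to 46240 after vehicle and 47940 to 49440 at 0 h, and only Vsig4, Timd4 and Marco lay at or under the nonspecific level in all 6 arrays. Neutrophil markers summed to 293 to 395 after vehicle and 139 to 152 at 0 h over 8 measured genes, of which S100a9, Ltf, Camp, Mpo and Elane lay at or under that level throughout. The neutrophil markers called higher were Mmp8, with 288, 289 and 218 units after vehicle and 92.2, 74.6 and 88.9 at 0 h, and S100a8, at least 1.93-fold higher. Monocyte markers summed to 1863 to 2600 after vehicle and 1927 to 3133 at 0 h, with Hp higher, and osteoclast markers to 531 to 628 and 503 to 561, with Acp5 and Ctsk higher and Itgb3 lower. The part of other cells in the results below was not tested. T and NK cell, B cell, mast cell, eosinophil and fibroblast lists had no called member, with sums of 24.6 to 92.6 after vehicle and 23.4 to 94.4 at 0 h. Nor had 4 brighter or similar lists. Endothelial and adipocyte markers summed to 322 to 389 after vehicle and 256 to 273 at 0 h, and stem and progenitor markers to 170.5 to 199.6 and 103.7 to 194. Dendritic cell markers summed to 55.7 to 76.3 and 75.7 to 92.5, and erythroid and megakaryocyte markers to 68.3 to 81.4 and 78.1 to 85.3.

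After 8 h in regular medium the macrophages had changed the signal of 2423 of the 17097 genes (14.2%), in both directions about equally often. Vehicle was higher for 1225 genes (7.16%) and lower for 1198 (7.01%). Larger changes leaned to the lower side, with 221 genes at least 2-fold higher (1.29%) and 459 at least 2-fold lower (2.68%). Among probe sets with no listed gene 6.4% were higher and 3.24% lower. The direction split depended on scaling: with arrays shifted to the same median it was 466 higher and 1411 lower, with the deposited values 222 and 1465, and with hybridisation controls as the anchor 171 and 601. Those scalings place the median gene at -0.11, -0.20 and -0.10 (log2), against -0.002 after quantile normalization.

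The gene that rose most was Id3, which encodes an inhibitor of basic helix-loop-helix transcription factors. It read 2033, 2093 and 2204 intensity units in the vehicle arrays, against 16.6, 24.8 and 36.4 in the 0 h arrays. At 0 h the gene was close to the nonspecific level in every array, and after vehicle it stood among the bright genes, an increase of 6.42 ± 0.31 (log2, 85.6-fold, adjusted p = 5.5e-09). Slc7a2, a transporter of cationic amino acids, rose 19.8-fold, with 749, 615 and 610 units after vehicle and 86.1, 45.0 and 9.30 at 0 h. Its 3 further probe sets rose by less, 0.63 to 2.94 against 4.31 (log2), and 1 of them was called. Acod1, the enzyme that makes itaconate, rose 12.9-fold, with 519, 291 and 394 units after vehicle and 52.9, 12.9 and 41.0 at 0 h. The 0 h arrays were the more scattered ones for both genes, yet no 0 h array came near a vehicle array. Fabp7, a fatty acid-binding protein, rose 13.9-fold and Cav1, the coat protein of caveolae, rose 11.6-fold. Arg2, the mitochondrial arginase, read 34.9 to 60.9 units after vehicle and lay under the nonspecific level in each 0 h array, a rise of at least 2.62-fold.

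Of the remaining large rises, Prdm1, which encodes the transcriptional repressor BLIMP-1, was 8.53-fold higher and Enc1, a kelch-family protein, 8.48-fold higher. Itgal, the alpha chain of the integrin LFA-1, read 1458, 1454 and 1215 units after vehicle against 191, 171 and 132 at 0 h, 8.42-fold higher. The groups lay far apart and each was tight, and the same held for Skil, whose product represses SMAD-driven transcription. Skil read 2029, 2008 and 2095 units after vehicle against 386, 321 and 384 at 0 h, a rise of 2.49 ± 0.10 (log2, adjusted p = 1.09e-09). Apoc2, an activator of lipoprotein lipase, rose 7.81-fold, Tgm2, a protein-crosslinking transglutaminase, 7.11-fold and the inhibitory SMAD gene Smad6 5.41-fold. 6330509M05Rik rose 5.34-fold and Sowahc 5.30-fold.

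Among the genes that fell most were chemokines of inflammatory monocyte recruitment and cyclins. Ccl7, a chemokine for monocytes, read 6.39, 7.29 and 14.6 units after vehicle against 644, 264 and 679 at 0 h. Vehicle arrays 1 and 2 lay under the nonspecific level, and the fitted change was -5.79 ± 0.63 (log2, 55.4-fold lower, adjusted p = 2.35e-05). With values raised to that level it was -4.99. Ccl2, which attracts monocytes through CCR2, read 83.5, 112 and 75.6 units after vehicle against 2304, 1086 and 2062 at 0 h, 19.4-fold lower, and the related Ccl12 was 9.38-fold lower. Array 2 of the 0 h group was the lowest of its group for all 3 chemokines and still stood above every vehicle array.

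Ccnd1, the gene of cyclin D1, read 70.0, 84.2 and 88.3 units after vehicle against 3249, 1814 and 3155 at 0 h, a change of -5.04 ± 0.65 (log2, 32.9-fold lower). The 2 further probe sets of Ccnd1 gave -5.42 and -5.33. Tnfsf9, the gene of the costimulatory ligand 4-1BBL, was 14.0-fold lower and Stat4, a signal transducer best known in T and NK cells, 11.7-fold lower. Among ETS-family transcription factors, Etv5 read 55.1, 81.2 and 73.2 units after vehicle against 693, 690 and 751 at 0 h, and Ets2 132, 128 and 136 against 1628, 894 and 1659. They fell 10.3-fold and 10.2-fold. Ch25h, which makes 25-hydroxycholesterol, was 10.0-fold lower, the B cell scaffold gene Bank1 8.54-fold and Plau, the urokinase-type plasminogen activator, 8.08-fold. Stat4 and Bank1 were above the nonspecific level in 1 of the 3 vehicle arrays each. In each of the 15 genes with the largest rise and the 15 with the largest fall, the 3 vehicle arrays lay outside the range of the 3 0 h arrays, as was the case for 3173 of all genes in the higher direction (18.6%) and 3041 in the lower direction (17.8%). Each of these 30 genes stayed past the threshold under all alternative settings run. They were chosen as the largest called changes in the same arrays, so the lack of overlap and the kept calls add no separate support.

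**Figure D1:**
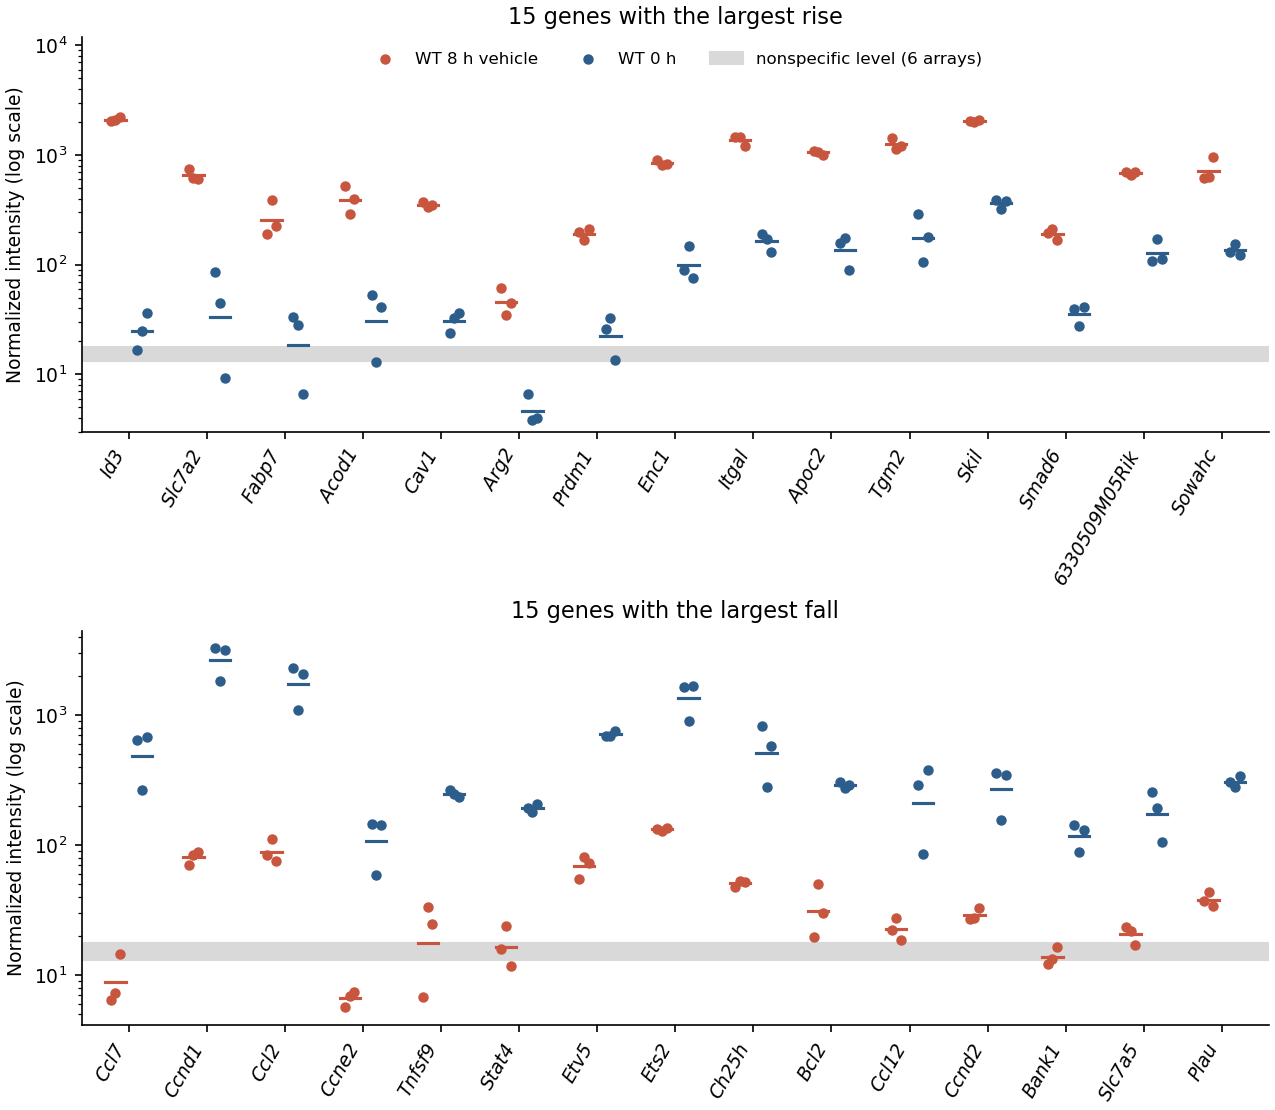
Normalized intensity (log scale) of the 15 genes with the largest rise (upper panel) and the largest fall (lower panel) in WT cells, with 1 point per array, 8 h vehicle left of 0 h, bars at the geometric mean of the 3 arrays, and the band marking the range of the nonspecific level over the 6 arrays. Id3 stands near the band at 0 h and at 2033 to 2204 units after vehicle, while Ccl7 and Ccne2 lie at or under the band after vehicle.

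Pathways were described through 30 gene lists with 783 measured entries, by counts of called members. Each such count is to be read against the shares over all genes, 7.16% higher and 7.01% lower. Where groups are said not to overlap, the shares over all genes are 18.6% with vehicle above and 17.8% with vehicle below. For each list the 5 called members with the largest change are named, and members beyond those are named where few moved, having been chosen after their values were seen. In bulk RNA a change in the share of cells that express a gene and a change per cell cannot be told apart.

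Receptors of the colony-stimulating factors rose after withdrawal. Csf1r, the M-CSF receptor gene, read 4059, 3983 and 4166 units after vehicle against 2331, 2492 and 2350 at 0 h, 1.70-fold higher (0.77 ± 0.12 log2, adjusted p = 0.000455). Csf2rb, the beta chain shared by the receptors for GM-CSF, IL-3 and IL-5, read 1838, 1610 and 1791 units against 577, 483 and 531, 3.30-fold higher. Its mouse paralog Csf2rb2, the IL-3-specific beta chain, read 1032, 978 and 1008 units after vehicle against 205, 155 and 219 at 0 h, 5.27-fold higher. These genes are near-identical, so their probe sets may share transcripts, which was not tested. Csf3r, the G-CSF receptor gene, read 356, 290 and 383 units against 114, 121 and 109, 2.97-fold higher. In none of the 4 receptor genes did a vehicle array overlap the 0 h arrays. The ligand genes showed no called change: Csf1 read 34.3 to 38.2 units after vehicle and 38.4 to 49.4 at 0 h (-0.32 ± 0.24), and Il34 lay under the nonspecific level in both groups.

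Of 32 measured members of the list of M-CSF receptor, ligands and proximal signalling, 7 rose (21.9%) and 3 fell (9.4%), against 7.16% and 7.01% over all genes, with a median of 0.12 (log2). Besides the 4 receptor genes, the rises were in Cbl, a ubiquitin ligase that directs CSF1R to degradation (1.56-fold), in the adaptor Gab2 (1.56-fold) and in the PI3K regulatory subunit Pik3r5 (1.59-fold). The falls were in Dab2, an endocytic adaptor, with 1046, 1371 and 1109 units after vehicle against 4455, 3958 and 4445 at 0 h (3.67-fold lower), in the kinase gene Fyn (2.00-fold) and in the PI3K catalytic subunit Pik3cg (1.70-fold). None of these 6 genes had overlapping groups. The 2 further probe sets of Gab2 gave -0.04 and 0.39 (log2), and neither was called. The adaptors and phosphatases Grb2 (0.28 ± 0.13), Shc1 (0.28 ± 0.11), Sos1, Ptpn6 (-0.01 ± 0.11), Ptpn11 (0.14 ± 0.09) and Inpp5d did not pass the test. Neither did Akt1 (0.03 ± 0.15), Pik3r1 (-0.01 ± 0.13), Pik3cd, Plcg2, Src, Stat3 (-0.05 ± 0.12), Stat5a, Stat5b, Socs1 or Cish. The rise of Csf1r was 0.56 with the deposited values and 0.67 with hybridisation controls, and neither passed. Under the 3 other scalings 4, 3 and 3 members rose and 3, 3 and 2 fell, with medians of -0.03, -0.13 and -0.02.

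Genes that report ERK activity fell. Of 33 measured members 15 were lower and 2 higher after vehicle, with a median of -0.42 (log2), against 7.01% lower over all genes. Besides Etv5, Myc, the growth-promoting transcription factor, read 77.2, 55.3 and 68.3 units after vehicle against 542, 434 and 555 at 0 h, 7.65-fold lower. Egr1, an immediate early zinc finger factor, read 106, 206 and 161 units after vehicle against 554, 1768 and 1409 at 0 h, 7.33-fold lower. Array 1 was the lowest of its group for Egr1 in both conditions, and the groups did not overlap. Spred2, a feedback inhibitor of RAS-ERK signalling, fell 4.38-fold and Phlda1 4.34-fold. The 2 members that rose were the AP-1 genes Fos (2287, 3120 and 3537 units after vehicle against 977, 2268 and 1722 at 0 h, 1.88-fold) and Junb (1.66-fold). These 2 calls were lost under each of the 3 other scalings and without vehicle replicate 3 or 0 h replicate 1, and 1 of them without vehicle replicate 2 or 0 h replicate 3, while 15, 15 and 12 members were lower under the other scalings. Of 37 measured MYC targets and ribosome biogenesis genes, 4 were lower (10.8%) and 2 higher (5.4%), shares near the 7.01% and 7.16% over all genes, with a median of -0.24. Myc itself is 1 of the 4, with the spermidine synthase gene Srm (2.34-fold lower), Nolc1 (1.83-fold) and Nop58 (1.58-fold). The rises were in the MYC antagonists Mxd4 (2.01-fold) and Mxi1 (1.56-fold). The number lower was 2 without vehicle replicate 3, 0 h replicate 1 or 0 h replicate 3 and 9 without 0 h replicate 2, and it was 15, 14 and 4 under the other scalings.

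**Figure D2:**
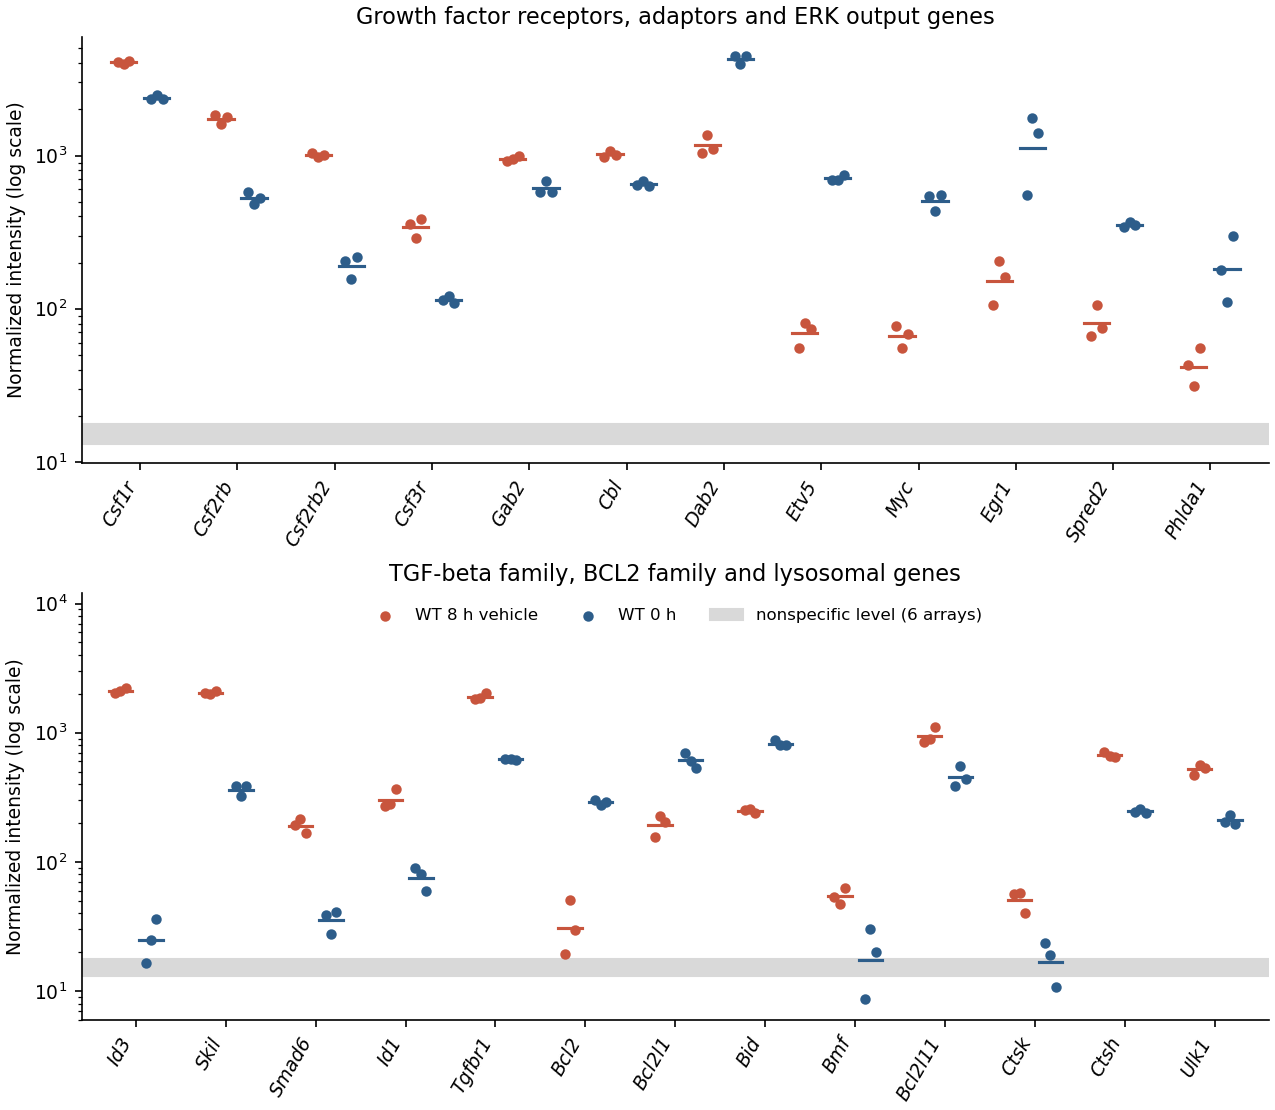
Normalized intensity (log scale) of named growth factor receptor, adaptor and ERK output genes (upper panel) and of TGF-beta family, BCL2 family and lysosomal genes (lower panel) in WT cells, with 1 point per array, 8 h vehicle left of 0 h, bars at the geometric mean and a band for the nonspecific level. The 4 receptor genes on the left are higher in all 3 vehicle arrays, and Dab2 and the ERK output genes are lower in all 3.

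Of 25 measured G1 cyclins, CDKs, E2Fs and CDK inhibitors, 15 were lower and 2 higher, against 7.01% and 7.16% over all genes, with a median of -0.94 (log2). All 3 D-type cyclin genes fell. Ccnd2 read 26.8, 27.3 and 32.7 units after vehicle against 359, 155 and 346 at 0 h (9.30-fold lower). Ccnd3 read 116, 160 and 123 units against 520, 534 and 462 (3.84-fold lower), and their partner kinase Cdk6 read 168, 197 and 210 against 929.4, 595 and 823 (4.03-fold lower). Ccne2, a cyclin E gene, lay under the nonspecific level in all 3 vehicle arrays and read 146, 58.4 and 143 units at 0 h, at least 7.20-fold lower. None of these genes had overlapping groups, and 0 h array 2 was the lowest 0 h array for Ccnd2, Cdk6 and Ccne2. Of the inhibitors that hold D-type cyclin kinases in check, Cdkn2b was 3.75-fold lower, Cdkn2a 3.29-fold and Cdkn2d 2.21-fold. The 2 rises were in Ccng2, a cyclin linked to cell cycle exit (521, 480 and 587 units after vehicle against 165, 237 and 202 at 0 h, 2.65-fold higher), and in Cdkn1b, the CDK inhibitor p27 (345, 409 and 419 against 176, 265 and 196, 1.86-fold higher). Only 1 of them passed with the deposited values, with hybridisation controls or with the mean over probe sets.

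DNA replication was the list with the largest share of called members. Of 38 measured genes 33 were lower (86.8%) and none higher, against 7.01% lower over all genes, and the median was -1.31 (log2). Uhrf1, which maintains DNA methylation behind the replication fork, read 55.2, 62.6 and 37.1 units after vehicle against 511, 275 and 475 at 0 h, 8.04-fold lower. Mcm6, a subunit of the replicative helicase, read 216, 200 and 213 units after vehicle against 1365, 873 and 1853 at 0 h, 6.21-fold lower. Cdc6, which loads that helicase onto origins, lay under the nonspecific level in each vehicle array and read 126, 53.4 and 89.3 units at 0 h, at least 5.69-fold lower. Rrm2, the regulated subunit of ribonucleotide reductase, fell 5.55-fold and the chromatin assembly factor gene Chaf1b 4.94-fold. In all 38 genes the vehicle arrays lay below all 0 h arrays, as in 17.8% of all genes. The count of lower members was 25 to 33 when any 1 WT array was left out and 27 to 37 under the other scalings.

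Some promoters of these genes carry the site of E2F factors. The letters TTTGGCGC or TTTCGCGC, searched on both strands from 250 bases before to 50 after the RefSeq start (GRCm38.p6), were in 10 of 32 promoters of the replication genes called lower and in 10 of 38 of all measured replication genes, against 0.813% of 32851 promoters of all genes, 1.22% of those of the genes tested and 2.87% of those of all genes called lower. The promoters of 2 of the most changed genes are shown with the matches in capitals, Uhrf1 at chr17:56304063-56304362, + strand and Mcm6 at chr1:128359656-128359955, - strand, where 2 of the matches overlap on opposite strands.
Uhrf1: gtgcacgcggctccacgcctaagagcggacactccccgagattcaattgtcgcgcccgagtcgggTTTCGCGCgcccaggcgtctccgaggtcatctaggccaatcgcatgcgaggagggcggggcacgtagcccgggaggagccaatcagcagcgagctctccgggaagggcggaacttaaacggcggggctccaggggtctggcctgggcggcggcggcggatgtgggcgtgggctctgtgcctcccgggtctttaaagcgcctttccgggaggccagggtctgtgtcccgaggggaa
Mcm6: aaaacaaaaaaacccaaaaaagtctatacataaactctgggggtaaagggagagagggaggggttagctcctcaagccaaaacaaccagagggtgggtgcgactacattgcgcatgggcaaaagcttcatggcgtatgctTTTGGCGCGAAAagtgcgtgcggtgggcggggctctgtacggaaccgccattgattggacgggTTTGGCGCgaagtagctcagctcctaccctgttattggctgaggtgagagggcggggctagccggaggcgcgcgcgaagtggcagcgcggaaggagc
A match is a description of the letters and not of binding.

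Mitosis genes were lower as well, by less. Of 38 measured genes 14 were lower (36.8%) and none higher, against 7.01% lower over all genes, with a median of -0.75 (log2). In 36 of the 38 genes the vehicle arrays lay below all 0 h arrays, as in 17.8% of all genes. Racgap1, which acts in cytokinesis, read 236, 223 and 158 units after vehicle against 491, 363 and 416 at 0 h, 2.08-fold lower (adjusted p = 0.0327). Aurkb, a kinase of chromosome segregation, was 2.05-fold lower, the motor gene Kif4 2.06-fold, Mad2l1, a spindle checkpoint gene, 1.99-fold and Aurka, the centrosomal aurora kinase, 1.90-fold. Vehicle array 3 was the lowest of its group for each of these 5 genes. The count of lower members changed with every array left out: 8, 7 and 1 without vehicle replicates 1, 2 and 3, and 2, 7 and 1 without 0 h replicates 1, 2 and 3. It was 18, 22 and 8 under the other scalings and 30 in a fit of the 6 arrays alone.

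In mitosis genes 2 other promoter elements recur, the cell cycle homology region (CHR, TTTGAA) and the CCAAT box (CCAAT). Both were present in 9 of 10 promoters of the mitosis genes called lower and in 23 of 32 promoters of all measured mitosis genes, against 6.95% of all promoters and 5.57% of those of all genes called lower. Over all promoters TTTGAA alone is in 17.9% and CCAAT alone in 37.4%. Racgap1 (chr15:99651607-99651906, - strand) and Kif4 (chrX:100625815-100626114, + strand) show the pair with both elements in capitals on either strand, and no CHR overlapped a CCAAT box.
Racgap1: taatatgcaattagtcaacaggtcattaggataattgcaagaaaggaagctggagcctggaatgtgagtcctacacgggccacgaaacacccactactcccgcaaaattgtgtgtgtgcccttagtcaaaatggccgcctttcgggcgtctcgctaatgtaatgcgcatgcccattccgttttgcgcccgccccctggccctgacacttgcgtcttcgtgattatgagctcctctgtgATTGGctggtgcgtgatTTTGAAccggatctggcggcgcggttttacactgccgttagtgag
Kif4: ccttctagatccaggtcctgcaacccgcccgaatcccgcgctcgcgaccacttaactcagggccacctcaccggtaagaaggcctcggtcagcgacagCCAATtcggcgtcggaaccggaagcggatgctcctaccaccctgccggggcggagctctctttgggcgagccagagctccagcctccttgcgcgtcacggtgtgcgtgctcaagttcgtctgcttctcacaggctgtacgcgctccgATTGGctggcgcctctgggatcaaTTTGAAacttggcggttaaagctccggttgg

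**Figure D3:**
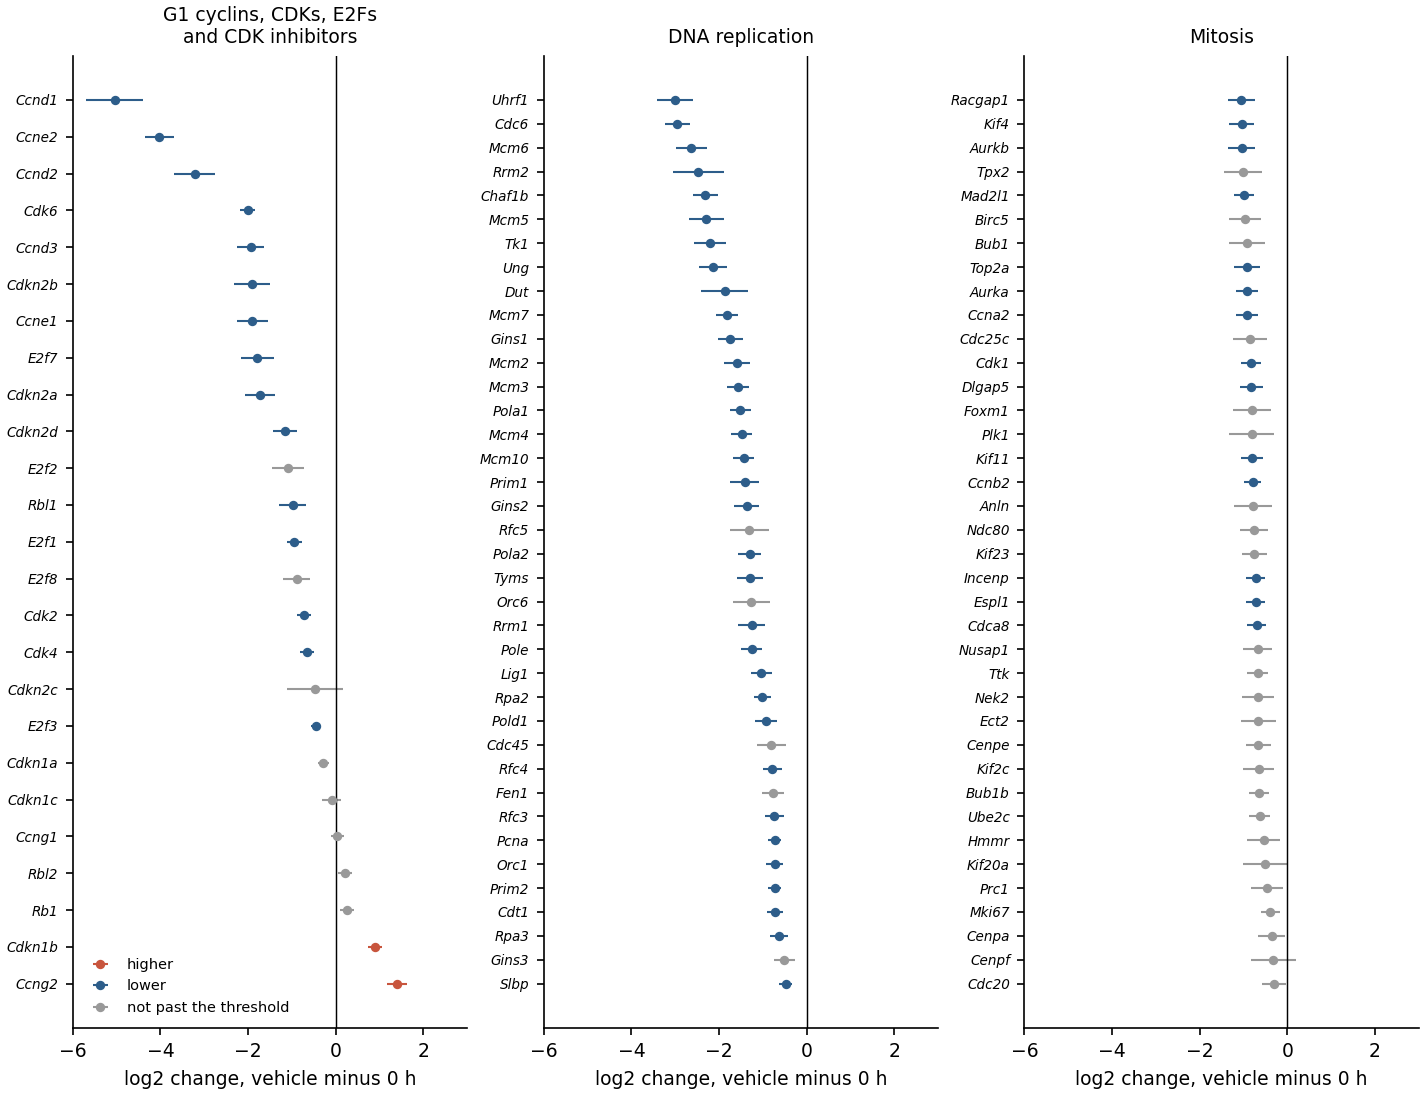
Fitted log2 change (vehicle minus 0 h, points) with its SE (bars, n = 3 arrays each) for every measured member of the G1, DNA replication and mitosis lists in WT cells, coloured by call. The replication genes run down to -3.01 for Uhrf1 with 33 of 38 called, while the mitosis genes stay within -1.05 and 14 of 38 are called.

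Genes of the BCL2 family moved in both directions, with 4 of 19 measured members lower and 4 higher (21.1% each), against 7.01% and 7.16% over all genes. The survival gene Bcl2 read 19.4, 50.4 and 29.8 units after vehicle against 303, 274 and 291 at 0 h, 9.38-fold lower, and its relative Bcl2l1, which encodes BCL-XL, read 155, 226 and 202 units against 698, 604 and 537, 3.17-fold lower. Of the death-promoting BH3-only genes, Bid was 3.31-fold lower and Bik 2.34-fold lower. Bmf, another BH3-only gene, read 53.7, 46.9 and 62.5 units after vehicle against 8.63, 30.4 and 20.0 at 0 h, 3.11-fold higher. Bcl2l11, the gene of the BH3-only protein BIM, read 851, 890 and 1115 units against 388, 552 and 441, 2.08-fold higher. The survival gene Bcl2l2 rose 1.58-fold and Bnip3l, a mitophagy receptor, 1.79-fold. The vehicle and 0 h arrays of these 8 genes did not overlap. Under the other scalings 2, 1 and 1 members were higher and 5, 4 and 4 lower.

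Targets of FOXO factors, which PI3K-AKT signalling holds out of the nucleus, split as well, with 10 of 33 measured members higher and 7 lower and a median of 0.13 (log2). Among the rises were Tsc22d1 (202, 186 and 175 units after vehicle against 93.8, 80.8 and 79.3 at 0 h, 2.22-fold), a leucine zipper protein, and Zbtb20 (226, 255 and 233 against 105, 122 and 116, 2.09-fold), a zinc finger repressor. The falls were led by the Krüppel-like factors Klf2 (458, 594 and 531 units after vehicle against 1785, 2789 and 3019 at 0 h, 4.71-fold) and Klf4 (79.8, 60.1 and 95.2 against 148, 306 and 219, 2.79-fold). Without vehicle replicate 2 or 0 h replicate 1 the members higher numbered 6. Under the other scalings 5, 2 and 1 were higher and 7, 7 and 6 lower.

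TGF-beta, activin and Id genes were the list with the largest share of higher members, 10 of 20 measured (50.0%), against 7.16% over all genes, and 2 were lower. Beside Id3, Skil and Smad6, Id1 read 272, 279 and 366 units after vehicle against 89.6, 81.0 and 59.5 at 0 h, 4.0-fold higher. Tgfbr1, the type I receptor for TGF-beta, read 1817, 1845 and 2039 units against 625, 630 and 611, 3.05-fold higher. Its 2 further probe sets rose by less, 0.55 and 0.72 against 1.61 (log2), and 1 of them was called. The type II receptor gene Tgfbr2 went the other way, with 2104, 2428 and 2066 units after vehicle against 3665, 3770 and 4151 at 0 h, 1.76-fold lower, as did Smad3, a SMAD that carries the signal to the nucleus, 2.60-fold lower. No array overlapped between the groups in these genes. The median of 0.36 (log2) stayed above 0 under the other scalings (0.17, 0.08 and 0.18), with 8, 7 and 7 members higher. Smad6 read 194, 214 and 168 units after vehicle against 39.1, 27.5 and 40.9 at 0 h. Its promoter (chr9:64022010-64022309, - strand) holds the SMAD palindrome GTCTAGAC, which is in 1 of 12 promoters of the called-higher members, in 0.213% of all promoters and in 0.371% of those of all genes called higher.
Smad6: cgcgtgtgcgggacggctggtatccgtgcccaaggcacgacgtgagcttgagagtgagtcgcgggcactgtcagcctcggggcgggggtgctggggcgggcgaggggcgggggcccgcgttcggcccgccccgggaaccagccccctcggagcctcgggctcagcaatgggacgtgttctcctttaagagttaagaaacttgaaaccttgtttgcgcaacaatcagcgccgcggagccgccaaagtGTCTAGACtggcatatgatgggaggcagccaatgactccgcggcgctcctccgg

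Genes of sterol and fatty acid synthesis fell. In the cholesterol list 7 of 19 measured genes were lower and none higher, with a median of -0.77 (log2). Fdps, which makes farnesyl diphosphate, read 315, 276 and 299 units after vehicle against 1205, 1179 and 1032 at 0 h, 3.84-fold lower. Fdft1, the squalene synthase gene, fell 2.27-fold, the lanosterol synthase gene Lss 2.24-fold, the sterol sensor Insig1 2.09-fold and the mevalonate kinase gene Mvk 1.71-fold. The number lower was 3 or 4 without any 1 of vehicle replicates 1, 2 and 3 or 0 h replicate 1, and 12, 12 and 4 under the other scalings. In the fatty acid list 8 of 21 measured genes were lower and 2 higher. Fasn, the fatty acid synthase gene, read 79.2, 84.6 and 117 units after vehicle against 334, 301 and 302 at 0 h, 3.39-fold lower. The acyl-CoA synthetase gene Acsl3 and the desaturase gene Fads2 fell 3.49-fold each, the elongase gene Elovl6 3.24-fold and Acss2, which activates acetate, 2.36-fold. None of these 10 genes had overlapping groups, and 0 h arrays were 1.71 to 3.84 times as bright. The rises, in Dgat1 (1.40-fold) and the malic enzyme gene Me1 (1.52-fold), were lost under each other scaling, where 9, 9 and 8 members were lower. Without vehicle replicate 2 or 0 h replicate 2 neither was called, and without any other WT array 1 was.

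In the list of LXR targets and cholesterol efflux, 4 of 21 measured members were higher and 4 lower. Apoc2 read 1099, 1074 and 1002 units after vehicle against 159, 175 and 89.5 at 0 h. Its relative Apoc1 read 21.4 to 22.5 units after vehicle and lay under the nonspecific level at 0 h, at least 1.27-fold higher. Plin2, a lipid droplet coat gene, rose 1.76-fold and Npc1, the lysosomal cholesterol exporter, 1.87-fold. Ch25h fell as given above, with Scarb1, a lipoprotein receptor (1.79-fold), Lpcat3 (1.42-fold) and the lipoprotein lipase gene Lpl (1.36-fold). The members lower numbered 2 without vehicle replicate 1, vehicle replicate 2 or 0 h replicate 2, and 1 without vehicle replicate 3 or 0 h replicate 1. Under the other scalings 4, 2 and 2 were higher and 3, 3 and 1 lower.

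Genes of the integrated stress response, which ATF4 drives when amino acids run short or unfolded protein builds up, were lower. Of 32 measured members 16 fell and 1 rose, with a median of -0.64 (log2), against 7.01% lower over all genes. Slc7a5, which imports large neutral amino acids, read 23.5, 21.7 and 16.9 units after vehicle against 256, 192 and 106 at 0 h, 8.46-fold lower. Psat1, an enzyme of serine synthesis, read 43.3, 48.0 and 37.4 units against 349, 272 and 250, 6.73-fold lower. Chac1, which degrades glutathione, was 6.62-fold lower, the pseudokinase gene Trib3 4.38-fold and the arginine transporter gene Slc7a1 4.0-fold. Array 3 of the 0 h group was the lowest 0 h array for Slc7a5, Psat1, Chac1 and Trib3, and for Chac1 it read 42.6 units where the others read 225 and 159. No groups overlapped in these 5 genes. The rise in Cebpb (1.46-fold), a bZIP factor, was lost without vehicle replicate 3 or 0 h replicate 3 and under the other scalings. The composite amino acid response element TGATGNAAN was in 5 of 15 promoters of the called-lower members and in 10 of 30 of all measured members, against 3.95% of all promoters and 3.44% of those of all genes called lower. It is in capitals in Chac1 (chr2:119350992-119351291, + strand) and Trib3 (chr2:152344011-152344310, - strand), on the strand opposite to the gene in both.
Chac1: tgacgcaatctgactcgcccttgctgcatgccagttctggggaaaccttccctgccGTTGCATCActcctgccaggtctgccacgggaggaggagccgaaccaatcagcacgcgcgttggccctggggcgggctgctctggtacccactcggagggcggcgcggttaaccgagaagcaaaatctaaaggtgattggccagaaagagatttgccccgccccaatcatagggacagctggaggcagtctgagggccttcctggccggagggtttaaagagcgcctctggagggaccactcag
Trib3: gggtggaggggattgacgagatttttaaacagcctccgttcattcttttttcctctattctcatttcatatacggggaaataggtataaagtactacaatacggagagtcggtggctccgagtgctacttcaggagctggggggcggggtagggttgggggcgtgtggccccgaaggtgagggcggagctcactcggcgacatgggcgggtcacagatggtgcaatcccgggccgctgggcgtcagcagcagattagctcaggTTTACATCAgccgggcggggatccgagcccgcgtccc

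The unfolded protein response list had 9 of 26 measured members lower and none higher. Herpud1, a gene of protein degradation from the endoplasmic reticulum, read 217, 168 and 194 units after vehicle against 468, 524 and 465 at 0 h, 2.53-fold lower. The secreted stress protein gene Manf fell 2.38-fold, the chaperone cofactor Sdf2l1 2.31-fold, the oxidase Ero1a 1.86-fold and the disulfide isomerase Pdia6 1.85-fold. These 5 genes had no overlap between the groups and passed under all alternative settings run.

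Of 34 measured glycolysis and HIF1 target genes, 12 were lower and 2 higher, with a median of -0.48 (log2). P4ha2, a collagen prolyl hydroxylase, read 23.6, 35.4 and 40.1 units after vehicle against 148, 150 and 167 at 0 h, 4.80-fold lower. Ndrg1, a hypoxia-induced gene, fell 3.66-fold, the phosphofructokinase gene Pfkp 2.76-fold, the lactate transporter gene Slc16a1 2.39-fold and the hexokinase gene Hk1 2.04-fold. A second hexokinase gene, Hk2, moved the opposite way, with 791, 655 and 772 units after vehicle against 469, 413 and 421 at 0 h (1.70-fold higher), as did the histone demethylase gene Kdm3a (1.39-fold). Under the other scalings 1, 0 and 0 members were higher and 14, 16 and 9 lower. Among 38 measured genes of the TCA cycle and respiratory chain 4 were lower (10.5%) and 1 higher (2.6%). These shares were near or below the 7.01% and 7.16% over all genes. The mitochondrial isocitrate dehydrogenase gene Idh2 fell 2.11-fold, with 238, 257 and 210 units after vehicle against 535, 521 and 433 at 0 h. Its further probe set gave -0.17 against -1.08 (log2) and was not called. The cytosolic isocitrate dehydrogenase gene Idh1 rose 1.92-fold, with 3236, 3332 and 3320 units against 1722, 1721 and 1713. It was past the threshold with arrays shifted to the same median but with neither of the other 2 scalings. Cycs, the cytochrome c gene, fell 1.83-fold, Idh3a 1.65-fold and Dlst 1.28-fold, and without 0 h replicate 1 the number lower was 2. Under the other scalings it was 4, 4 and 1.

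Genes of lysosomes and autophagy, many of them targets of the factor TFEB, were more often higher, with 16 of 42 measured members higher and 1 lower and a median of 0.24 (log2). Ctsk, the collagen-cleaving cathepsin K, read 56.4, 57.9 and 40.1 units after vehicle against 23.3, 18.9 and 10.7 at 0 h, 3.03-fold higher. Ctsh, cathepsin H, read 712, 662 and 646 units after vehicle against 244, 259 and 239 at 0 h, 2.72-fold higher. Ulk1, the kinase that starts autophagy, read 472, 564 and 536 units against 204, 231 and 195, 2.49-fold higher. Its further probe set gave 0.73 against 1.32 (log2) and was not called. Gpnmb, a lysosomal membrane glycoprotein, was 2.01-fold higher. In Gpnmb 0 h array 3 read 1123 units where the others read 2468 and 2618, and its call was kept in 8 of 16 settings. All 12 other rises were under 2-fold. The one fall was in Atg9b, an autophagy membrane protein gene (1.98-fold). The count of higher members was 10 without vehicle replicate 2 or vehicle replicate 3, and 6, 3 and 3 under the other scalings, where 1, 1 and 0 were lower. Without vehicle replicate 2 or 0 h replicate 1 Atg9b was not called. Of 23 measured targets of the antioxidant factor NRF2, 5 were higher and none lower. Gclm, a subunit of the enzyme that starts glutathione synthesis, read 1980, 2066 and 2187 units after vehicle against 831, 749 and 366 at 0 h, 3.40-fold higher. The others were Gstm1 (1.85-fold), Taldo1 (1.63-fold), Me1 (1.52-fold) and the catalase gene Cat (1.44-fold). Their number was 3 without vehicle replicate 2, vehicle replicate 3 or 0 h replicate 3, and 2, 1 and 1 under the other scalings.

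Of 22 measured inflammatory cytokines and mediators 3 rose (13.6%) and 2 fell (9.1%), against 7.16% and 7.01% over all genes, and 11 were never above the nonspecific level in the 6 arrays. Il1b, the interleukin-1 beta gene, read 40.7, 30.3 and 52.0 units after vehicle and at or under the nonspecific level at 0 h, at least 2.30-fold higher. After 8 h of LPS in the same regular medium it read 4151 to 5787 units. Saa3, an acute phase gene, rose 2.45-fold, to 124, 64.2 and 136 units after vehicle against 50.8, 36.2 and 39.8 at 0 h, and read 9239 to 9536 after LPS. Acod1, the third that rose, read 6935 to 7775 units after LPS. The falls were in Tnfsf9 and in Il18, the interleukin-18 gene (1.63-fold), and with hybridisation controls as the anchor 3 members were higher and 1 lower. Of 24 measured chemokine genes 5 fell (20.8%) and 2 rose (8.3%), against 7.01% and 7.16% over all genes. Beside Ccl7, Ccl2 and Ccl12, Ccl4 fell 2.81-fold, with 496, 474 and 583 units after vehicle against 1512, 1191 and 1691 at 0 h, and Ccl9 fell 1.32-fold. The rises were in Cxcl14 (312, 419 and 314 units against 151, 79.8 and 95.2, 3.29-fold) and in Cxcl16, the ligand of CXCR6 (2.70-fold).

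Interferon-stimulated genes were lower, with 8 of 34 measured members called lower (23.5%) and none higher, against 7.01% lower over all genes. In 20 members the vehicle arrays lay below all 0 h arrays, as in 17.8% of all genes. Mx1, an antiviral GTPase, read 52.9, 53.3 and 32.5 units after vehicle against 152, 91.6 and 138 at 0 h, 2.76-fold lower. Its relative Mx2 fell 2.25-fold, the RNA sensor gene Dhx58 2.58-fold, the antiviral gene Ifit3 2.29-fold and Xaf1, a promoter of cell death, 1.93-fold. Vehicle array 3 was the lowest for all 5. The count was 4 without vehicle replicate 2, 3 without vehicle replicate 3 or 0 h replicate 1, and 14 in a fit of the 6 arrays alone.

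Receptors that guide migration went both ways, with 5 of 21 measured members lower and 5 higher (23.8% each), against 7.01% and 7.16% over all genes. Ccr1, a chemokine receptor, read 88.2, 105 and 94.3 units after vehicle against 490, 797 and 839 at 0 h, 7.21-fold lower. The purine receptor P2ry12, known as a microglial marker, fell 4.30-fold, P2ry13 3.06-fold, Cxcr3 2.11-fold and the complement receptor gene C5ar1 1.98-fold. Ptger2, a prostaglandin E2 receptor, rose 2.44-fold, and a second one, Ptger4, 1.80-fold. The formyl peptide receptor gene Fpr2 rose 1.91-fold and the ATP-gated channels P2rx4 and P2rx7 1.87-fold and 1.70-fold. No vehicle array overlapped a 0 h array in these 10 genes. The number lower was 3 without vehicle replicate 2, vehicle replicate 3 or 0 h replicate 3, and the number higher was 3, 1 and 1 under the other scalings.

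Of 29 measured macrophage identity genes 6 were higher (20.7%), 2 lower (6.9%) and 21 not past the test. Over all genes 7.16% were higher and 7.01% lower, so the share lower was near that over all genes. Cebpa, a myeloid lineage factor, read 824, 1109 and 895 units after vehicle against 348, 400 and 285 at 0 h, 2.74-fold higher, and Mertk, a receptor for the uptake of dying cells, was 2.43-fold higher. The other rises, beside Csf1r and Cebpb, were in Tlr4 (1.48-fold), the LPS receptor gene, and Spi1 (1.27-fold), which encodes PU.1. Mrc1, the mannose receptor, read 2196, 2095 and 2176 units after vehicle against 4288, 4873 and 5319 at 0 h, 2.23-fold lower, and the Fc receptor gene Fcgr1 was 1.88-fold lower. The members higher numbered 3 without vehicle replicate 3 or 0 h replicate 3, and 3, 1 and 1 under the other scalings. The members lower numbered 1 without vehicle replicate 1, 2 or 3 or 0 h replicate 1 or 3, and 3, 3 and 1 under the other scalings.

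Of 22 measured alternative activation markers 3 fell and 3 rose (13.6% each), against 7.01% and 7.16% over all genes. The lectins of this list opposed each other: beside Mrc1, Clec10a read 772, 588 and 780 units after vehicle against 2625, 4066 and 3042 at 0 h (4.51-fold lower) and Mgl2 fell 2.50-fold. Clec7a, the beta-glucan receptor Dectin-1, read 1156, 1515 and 1144 units after vehicle against 343, 328 and 203 at 0 h (4.45-fold higher). Tgm2 read 1435, 1133 and 1221 units against 288, 107 and 180, and the growth factor gene Igf1 rose 1.98-fold. Without 0 h replicate 2 the number that fell was 1, and under the other scalings 2 were higher in each and 5, 5 and 4 lower. The list of MHC class II presentation also holds costimulatory genes, and none of its 14 measured members rose and 4 fell. These were the costimulatory genes Cd40 (2.71-fold) and Cd80 (1.59-fold), and the class II genes H2-Ob (2.07-fold) and H2-DMa (1.81-fold). Cd40 read 45.0 to 51.5 units at 0 h, above the nonspecific level, and 9.45 to 29.3 after vehicle, around that level. The count was 2 without vehicle replicate 1, vehicle replicate 2 or 0 h replicate 2, and 1 without vehicle replicate 3 or 0 h replicate 1.

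**Figure D4:**
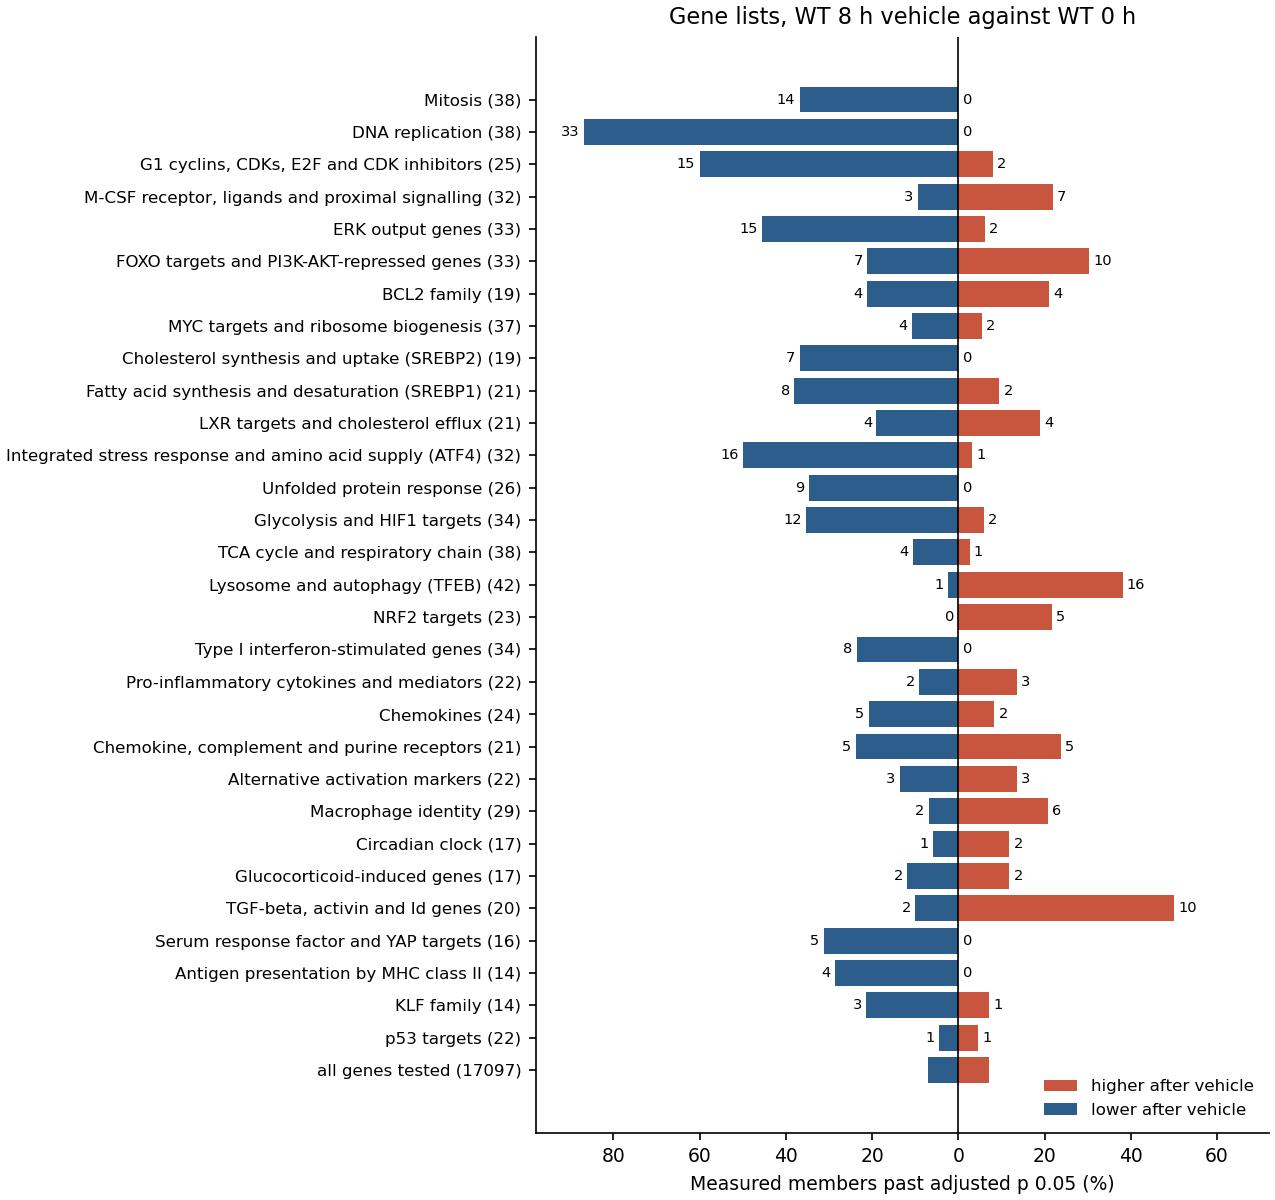
Percent of the measured members of each gene list (measured number in parentheses) that were called higher (right, red) or lower (left, blue) in WT cells after 8 h vehicle relative to 0 h, with the number called at each bar and all genes in the last row. DNA replication reaches 86.8% lower and TGF-beta, activin and Id genes 50.0% higher, against 7.01% and 7.16% over all genes.

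The same contrast in Klf3 KO cells, which uses 6 other arrays, called 2145 genes (12.5%), 1155 higher (6.76%) and 990 lower (5.79%). Both contrasts take their spread from the same fit over all 18 arrays, so the calls are not independent. KO arrays also had vehicle in plate rows C and D and 0 h in rows A and B. Their Gapdh 5′ minus 3′ signal was -0.141, -0.150 and -0.298 after vehicle and 0.148, 0.125 and 0.004 at 0 h. The part of these in the shared calls was not tested. Klf3 itself read 135, 175 and 67.7 units after vehicle and 148, 175 and 170 at 0 h in KO cells, against 546, 316 and 504 after vehicle and 384, 295 and 456 at 0 h in WT cells. Every KO array lay below every WT array, and whether this probe set lies in the deleted part of the gene is not stated in the labels. Of the 1225 genes higher in WT cells, 822 were also called higher in KO cells, which is 71.2% of the KO and 67.1% of the WT calls. Of the 1198 lower in WT cells, 707 were also called lower in KO cells, 71.4% of the KO and 59.0% of the WT calls. The KO change had the same sign for 98.4% of the genes higher and 97.8% of the genes lower in WT cells, and 1 gene was called in opposite directions. Genes called higher in WT cells had a median change of 0.58 (log2) in KO and 0.66 in WT cells, and those called lower -0.67 and -0.86. A test of the difference between the genotypes called 0 genes by limma, with 628 at an unadjusted p under 0.05 (3.67%) and a smallest adjusted p of 0.9995. Id3 changed by 6.66 ± 0.31 in KO and 6.42 ± 0.31 in WT cells, Ccnd1 by -5.17 ± 0.65 and -5.04 ± 0.65, and Ccl7 by -6.24 ± 0.63 and -5.79 ± 0.63. Slc7a5 changed by -1.22 ± 0.32 in KO and -3.08 ± 0.32 in WT cells, and read 14.8 to 32.9 units after vehicle and 47.1 to 64.1 at 0 h in KO cells, against 16.9 to 23.5 and 106 to 256 in WT cells. The stress response list had 5 members lower and 2 higher in KO cells, against 16 and 1 in WT cells, with medians of -0.08 and -0.64. Mitosis had 1 lower in KO and 14 in WT cells, none higher in either, and medians of -0.5 and -0.75. Interferon-stimulated genes had 1 lower and 3 higher in KO cells, against 8 and 0 in WT cells, with medians of -0.04 and -0.55. None of the members of these lists differed between the genotypes past the threshold. DNA replication had 25 members lower in KO and 33 in WT cells, ERK output genes 14 and 15, and TGF-beta, activin and Id genes 9 and 10 higher. In KO cells the count of called genes was 1335 without KO vehicle replicate 2 and 1252 without KO 0 h replicate 1.

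**Figure D5:**
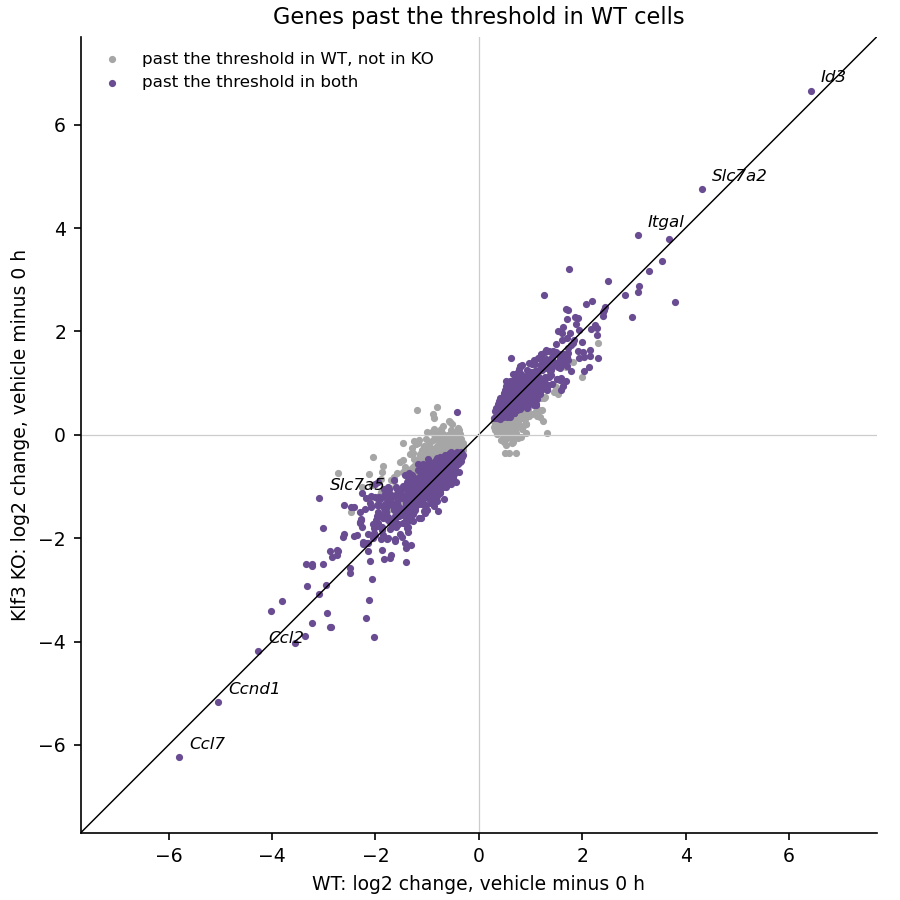
Log2 change (vehicle minus 0 h) of the 2423 genes called in WT cells, in Klf3 KO cells (vertical axis) against WT cells (horizontal axis), with 1 point per gene, the diagonal marking equal change, and colour marking genes called in both genotypes. Id3, Ccnd1 and Ccl7 lie near the diagonal, and Slc7a5 lies above it at -1.22 in KO and -3.08 in WT cells.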

How the data were processed

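RNA of macrophages from WT and Klf3 KO marrow was measured on 18 one-colour Affymetrix HT MG-430PM arrays, 3 in each of 6 groups assigned by sample title. The deposited values are intensity per probe set on a linear scale, and Partek is the tool named in the submitters' processing notes. How background, summarization and scaling were handled for the deposited intensities is not stated in the sources used here. Medians and quartiles differ between arrays, so the values were taken to log2 and quantile normalized over all 45141 probe sets. After removal of 104 controls, 28898 probe sets named 1 gene in the platform annotation, 551 several and 15588 none. The brightest probe set, by its mean over all arrays, stood for each of 17097 genes, and 16937 of these were found in the RefSeq table.

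A limma fit (limma 3.58.1, R 4.3.3) had 1 mean for each of the 6 groups and empirical Bayes moderation, with Benjamini-Hochberg adjustment over all genes and a threshold of 0.05. The fit was tested on simulated data of 17097 genes with independent noise in each gene. With 100 genes changed at each size in the WT vehicle group, the same contrast recovered 75% of changes of 1 and 99% of changes of 2 (log2). It made 4 false calls among the unchanged genes. The simulated data held no effect of scaling, RNA quality or plate position, so false calls from these were not tested. The nonspecific level is the 95th percentile of 23 control probe sets on each array. If no array of the dimmer group exceeded it, the fold is a lower bound, the brighter mean over the higher of that level and the signal, and is written "at least". Depth does not apply to arrays, and 3 arrays in a group limit the precision. Of the 871 gene list entries 783 matched a measured gene, and of the 106 marker entries 89. The named genes are the 15 with the largest rise and the 15 with the largest fall among called genes, all members of the M-CSF list, and the 5 called members with the largest change in each other list. Members and lists were chosen with earlier results of these data known. Promoters are RefSeq windows (GRCm38.p6), searched by letters. Replicate numbers occur in every group. Deviations from the group mean of same-numbered arrays correlated at 0.012, 0.007 and 0.041 in WT and at -0.046, 0.144 and 0.098 in KO cells, so the numbers were not taken to pair the samples. Alternatives covered scaling, filters, the choice of probe set, the arrays in the fit, the variance trend, the replicate block and omission of each array.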

Additional observations from a re-analysis of the deposited data

Results flagged for a closer look

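Probe sets for which the annotation used here lists no gene were outside the comparisons above and also differed between the groups. Of 15588 such probe sets, 997 were higher after vehicle (6.4%) and 505 lower (3.24%) in WT cells in the same limma fit. The largest rise was in 1421811_PM_at, with 1002 ± 182 units (SD, n = 3) after vehicle and 46.9 ± 16.8 at 0 h, a change of 4.46 (log2) in WT and 3.17 in KO cells. Next came 1460302_PM_at, with 771 ± 334 units after vehicle and 42.1 ± 13.8 at 0 h. The largest falls were in 1425145_PM_at, with 9.85 ± 2.42 units after vehicle and 134 ± 27.1 at 0 h, and in 1415823_PM_at, with 80.4 ± 18.2 and 959 ± 277. These probe sets are given by their identifiers and were chosen as the largest changes after their values were seen.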

How the results depend on the processing

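The number of genes called in WT cells was 1616 to 2070 when any 1 array was left out, against 2423 with all arrays. It was 772 with hybridisation controls as the anchor and 5174 over all non-control probe sets, an alternative chosen after seeing the data. The KO count was 2145 with all arrays, 1252 to 2146 with 1 array left out and 751 with hybridisation controls. Of the KO calls 1155 were higher and 990 lower, and the split was 338 and 2047 after a shift to a common median, 199 and 1559 with the deposited values, and 128 and 623 with hybridisation controls. The test between genotypes called 0 genes under every alternative run. The Gapdh 5′ minus 3′ difference was -0.311, and -0.359 to -0.279 with 1 array left out.

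A replicate block gave 2354 called genes in WT cells, 2081 in KO cells and 0 between the genotypes. It moved the count of interferon-stimulated genes lower in WT cells to 13, against 8 without the block, and no other list count by more than 1.5 times. Of 155 named genes past the threshold, 99 passed under every setting and 56 were lost under at least 1. Hlf, which lay under the nonspecific level in all 6 arrays, changed by 0.62, and by -0.23 (adjusted p = 0.204) with values raised to that level, which replaces all of its values by the level itself. Another probe set was above that level for 60 of the 155 genes, and 89 of 91 such probe sets had the same direction. Fitting the 6 arrays alone gave 14 cholesterol genes lower, 8 members of the LXR and efflux list higher and 6 identity genes lower. The cause was not tested. The signal over background limits the genes near the nonspecific level, and 6665 genes were never above it in the 6 arrays.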

Other observations

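Of 16 measured targets of serum response factor and YAP, which read out actin assembly and adhesion, 5 fell (31.2%) and none rose in WT cells, against 7.01% and 7.16% over all genes. Vcl, which links integrins to actin, read 177, 160 and 162 units after vehicle against 443, 444 and 418 at 0 h, 2.62-fold lower, and Tpm1, a tropomyosin gene, fell 2.31-fold. The 2 further probe sets of Tpm1 differed in direction, with -0.92 and 0.46 (log2). Cnn2, a calponin gene, fell 1.95-fold, Tpm4 1.57-fold and the cytoplasmic actin gene Actg1 1.36-fold, and no vehicle array of these 5 genes overlapped a 0 h array. In KO cells the same 5 genes were lower by 0.34 to 1.70 (log2).

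Of 14 measured KLF family genes 3 fell (21.4%) and 1 rose (7.1%). Beside Klf2 and Klf4, Klf6 fell 1.82-fold, and Klf11 rose 1.82-fold, with 145, 123 and 130 units after vehicle against 73.9, 64.2 and 81.7 at 0 h. With hybridisation controls 2 were lower and none higher, and without 0 h replicate 1 or 2 the number higher was 2. The 3 lists that follow had shares near or below those over all genes. Glucocorticoid-induced genes had 2 of 17 measured members lower and 2 higher (11.8% each). Fkbp5, a cochaperone of the receptor, fell 3.13-fold and Ddit4, an inhibitor of mTORC1, 1.93-fold, while the kinase gene Sgk1 rose 1.78-fold and Cebpd 1.40-fold. Under each other scaling 3 were lower and none higher, and the number higher was 1 without any 1 of the vehicle replicates or 0 h replicates 1 and 3. Clock genes had 1 of 17 measured members lower (5.9%) and 2 higher (11.8%). Ciart, a transcriptional repressor, fell 2.01-fold and Nr1d2, which encodes REV-ERB beta, rose 1.55-fold. Hlf also rose, under the nonspecific level. Every omission of 1 array left 1 clock gene higher, and the other scalings left none. The p53 targets had 1 of 22 measured members lower and 1 higher (4.5% each). Plk2, a polo-like kinase gene, fell 2.78-fold and Trp53inp1 rose 2.03-fold. The fall was lost without vehicle replicate 1 or 0 h replicate 2, and the rise with the deposited values and with hybridisation controls.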
